A study of Brassica napus with 33 samples.

Results

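The nuclear genome of rapeseed, Brassica napus, is made of an A and a C subgenome, and the genes compared here are those whose identifier places them on 1 of the 10 A chromosomes (A01 to A10) or the 9 C chromosomes (C01 to C09). The identifier alone decided the choice, and no measured value was used. This gave 88428 of the 101040 genes counted (87.5%), of which 40250 belong to the A and 48178 to the C subgenome. The other 12612 genes, on sequences not assigned to a chromosome, served only in the normalization and the adjustment of p-values.

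All plants were wild type of the cultivar Trezzor, grown in hydroponics for 24 days on a complete solution before any treatment, and RNA came from roots. Roots deprived for 10 days of Ca, K, Mg, N, P or S were set against roots kept on complete solution for the same 10 days. Roots deprived for 22 days of Cl, Co or Mn were set against controls of 22 days. Each of the 11 conditions had 3 libraries, and a library was a pool of a pair of plants. The files give no gene names, so the root label was not checked against marker genes.

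Rapeseed arose from a cross between relatives of turnip, which gave the A subgenome, and of cabbage, which gave the C subgenome. Most genes therefore exist as a homoeologous A and C copy, and chromosomes such as A01 and C01, A02 and C02 or A03 and C03 carry matching genes in largely the same order. Expression of the 2 copies can be balanced, or 1 copy can take over, and exchanges of segments between homoeologous chromosomes are a known feature of rapeseed lines. DNA was not measured in this series.

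The 21 libraries of day 10 held 10115284 to 22841765 counts on genes (median 13953898), and the 12 libraries of day 22 held 11765941 to 22053289. Levels are CPM, the counts of a gene scaled to the size of its library with TMM factors, and are per gene and not per length, since gene lengths were not used here. Several libraries stand apart from their replicates over long stretches of single chromosomes. They are described before the responses to deprivation, because those responses are read against them.

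A larger share of A than of C genes was expressed in control roots. A gene at 1 CPM or more was counted as expressed, and in the 3 controls of day 10 this held for 54.4% ± 0.235 of A genes and 46.1% ± 0.247 of C genes (SD, n = 3). The gap of 8.24 percentage points is many times the spread between libraries. Genes with at most 3 counts in every one of the 33 libraries made up 27.2% of the A genes (10968) and 36.3% of the C genes (17474).

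**Figure D1:**
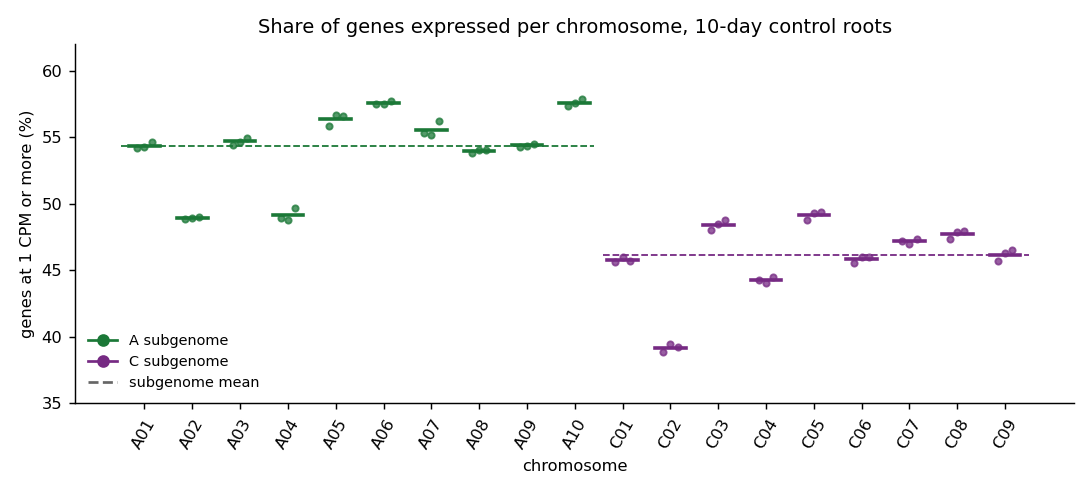
Share of genes at 1 CPM or more (y axis, percent) on each chromosome (x axis) in the 3 control libraries of day 10, as points, with the chromosome mean as a bar and the subgenome mean as a dashed line. C02 lies lowest at 39.2% and A06 and A10 highest at 57.6%, while A02 and A04 lie near the highest C chromosome, C05.

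The 19 chromosomes did not form 2 closed groups. A02 (48.9% ± 0.0945) and A04 (49.1% ± 0.464) had shares like that of C05 (49.2% ± 0.310, SD, n = 3 each), and these 3 do not differ beyond their spread. The other 8 A chromosomes lay between 53.96% (A08) and 57.6% (A06 and A10). The other 8 C chromosomes lay between 39.2% (C02) and 48.4% (C03). The share of genes silent in all 33 libraries ran from 24.5% on A06 to 42.6% on C02.

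Within chromosomes the expressed share varied more than between them. At the end of each chromosome's numbering, 3651 A and 4068 C genes are listed in short separate runs, so their position is less sure. With these left out, each chromosome was divided into 10 stretches of equal gene number. The lowest share was 28.1%, in stretch 6 of C09, and the highest was 72.8%, in stretch 9 of A05. Stretch 7 was also low on C02 (28.9%) and C01 (30.8%), and stretch 1 of A01 was high (69.7%). The lowest stretch lay inside the chromosome rather than at an end on all chromosomes except C07, where stretch 1 was lowest (32.8%).

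Long runs of silent genes were more numerous on C chromosomes. Runs of 10 or more neighbouring genes that were all silent numbered 15 on A chromosomes (181 genes) and 53 on C chromosomes (658 genes). More C than A genes were silent (36.3% and 27.2%), which by itself gives more such runs. Whether silent genes cluster more on C beyond that was not tested. The longest run of the A subgenome held 24 genes on A06, from BnaA06g19210D to BnaA06g19440D. The longest of the C subgenome held 27 genes on C09, from BnaC09g16400D to BnaC09g16660D.

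Once expressed, A and C genes had like levels. Among genes at 1 CPM or more in all 3 controls (20531 A and 20789 C genes), the median was 9.81 CPM in A and 9.83 CPM in C, and 732 A and 740 C genes reached 100 CPM. Chromosome medians ran from 8.66 CPM on C02 to 10.4 CPM on A01. The A subgenome held 45.5% of the placed genes and 50.1% ± 0.166 of the counts on them (SD, n = 3). C02 was again lowest for its size, with 3.802% ± 0.127 of the counts for 5.53% of the genes.

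The gene with most counts per chromosome (not per length) reached from 568 CPM, BnaC04g06800D, to 2433 CPM, BnaA06g08510D, on average over the 3 controls. These 19 genes took between 0.951% (BnaC03g10290D on C03) and 4.59% (BnaA06g08510D on A06) of the counts of their chromosome. No annotation for them was found in the sources used. Some A and C genes among them had like changes: under N deprivation BnaA01g03260D and BnaC01g04530D both changed by -2.79 on the log2 scale (edgeR adjusted p = 6.17e-05 and 0.000288), and BnaA07g33310D and BnaC06g37860D changed by -3.33 and -3.36 (adjusted p = 0.00201 and 0.00137). All of these genes varied strongly in control roots and were lowest in control library 1. BnaA07g33310D had 266, 1784 and 2775 CPM, BnaC06g37860D 264, 1726 and 2326, BnaA01g03260D 484, 1374 and 846, and BnaC01g04530D 426, 1232 and 839. Under Mg deprivation BnaA01g03260D changed by 1.46 (adjusted p = 0.0256) and BnaC01g04530D by 0.46 (adjusted p = 0.563).

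Stretches of single chromosomes were shifted in some libraries and not in others. For each gene at a mean of 4 CPM or more (log2 CPM of at least 2), the deviation from its own median over the libraries of the time point was taken, and the median deviation was followed along windows of 100 consecutive genes. A block is a run of at least 5 windows that all deviate by 0.15 or more (log2) in the same direction. This rule was set after the shifts had been seen, so blocks are described and not tested.

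There were 69 blocks, 35 lower and 34 higher, and they lay on 12 chromosomes (A01, A02, A03, A05, A09, A10, C01, C02, C03, C04, C08 and C09). No block was found on A04, A06, A07, A08, C05, C06 or C07. Of the 69, 37 lay on A01 or C01. They occurred in 14 of the 21 libraries of day 10 and in all 12 libraries of day 22, control libraries included. For 40 of the 69, a block of the opposite sign stood in the same library on the partner chromosome (A01 with C01, A02 with C02, A03 with C03, A05 with C04, A09 with C08 and A10 with C09). For 47, an opposite block stood on any chromosome of the other subgenome. The partner list holds only the 12 chromosomes with blocks, so these counts describe the blocks and do not test the pairing.

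The sharpest block was in library 3 of the N-deprived roots. The first 33 windows of C03, BnaC03g00010D to BnaC03g33000D, had a median deviation of -0.81, which is 0.57 of the usual level, and 852 of their 1278 genes were lowest in that library among the 21. The first 28 windows of A03, BnaA03g00010D to BnaA03g28000D, had a deviation of 0.48 in the same library, with 510 of 1234 genes highest. The other 2 N-deprived libraries deviated by 0.00 and 0.01 on C03 and by 0.00 and 0.00 on A03.

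The change was abrupt along the chromosome. Beyond these windows the same library returned to 0.00 on C03 (windows 34 to 79) and 0.01 on A03 (windows 29 to 61). Near the end of the numbering, windows 72 and 73 of C03 deviated by -0.79 and -0.73 and windows 56 and 57 of A03 by 0.42 and 0.50. These windows lie almost wholly among the genes listed in short runs. Such genes follow the first 7113 genes of C03 and the first 5430 of A03. Their position is less sure, so another matching place is not shown.

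**Figure D2:**
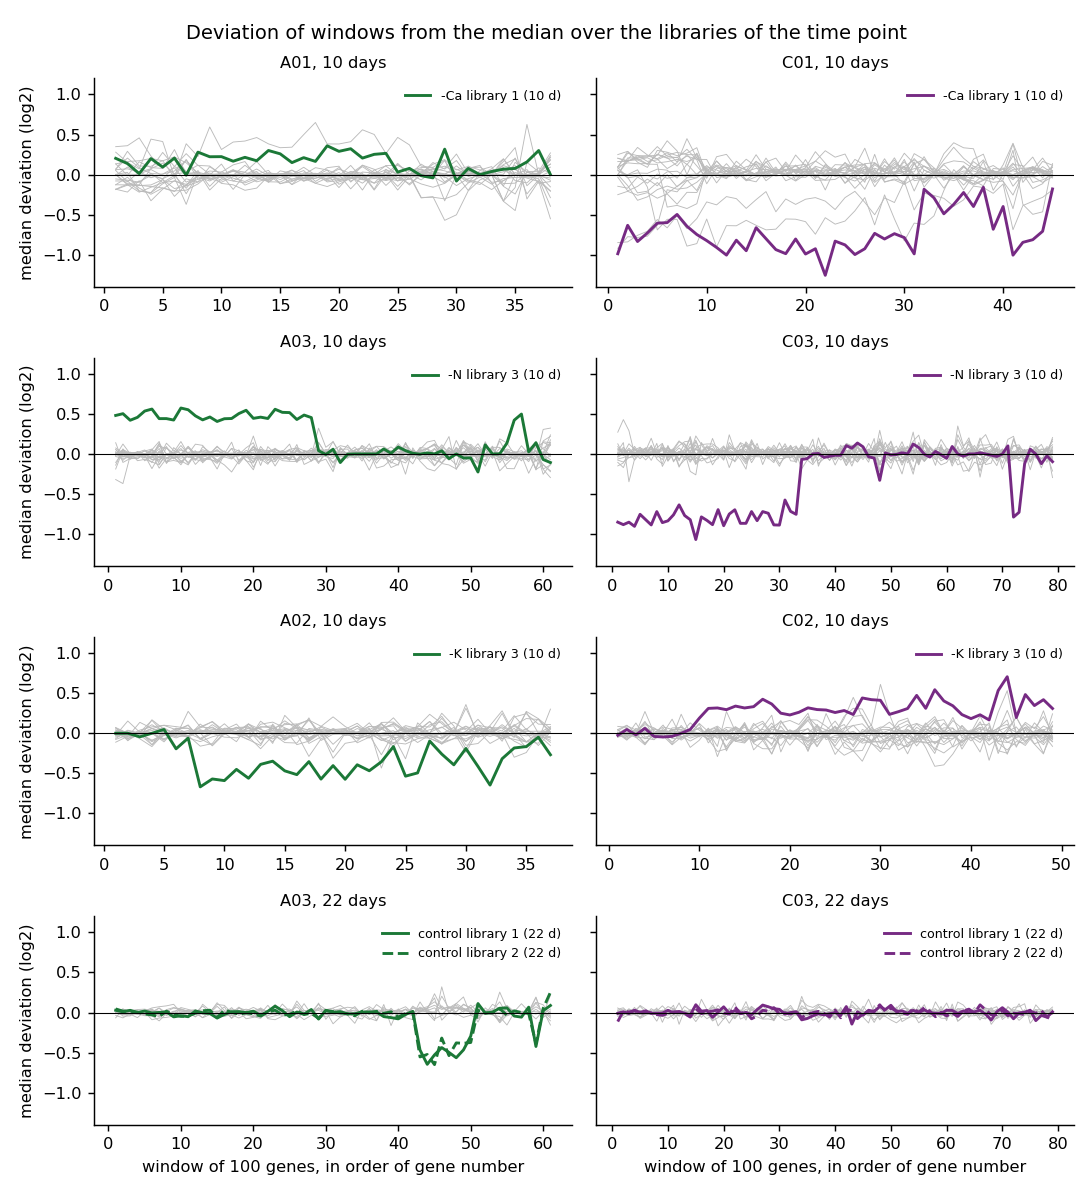
Median deviation (y axis, log2) of windows of 100 genes in order along A chromosomes (left, green) and C chromosomes (right, purple), for 4 cases. The named libraries are coloured and all other libraries of the time point are grey. In the N-deprived library 3 the first 33 windows of C03 lie at -0.81 and the first 28 of A03 at 0.48, and in 2 controls of day 22 windows 43 to 50 of A03 lie at -0.49 with no shift on C03.

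Chromosome C01 was lower along its whole length in library 1 of the Ca-deprived roots. All 45 windows of C01 formed 1 block at -0.73, with 588 of 1417 genes lowest of the 21 libraries, while the other 2 Ca-deprived libraries stood at 0.05 and 0.05. A01 was higher in 2 blocks, at 0.24 and 0.26. Library 1 of the Mg-deprived roots had a block at -0.60 on C01 (windows 4 to 34) and at 0.41 on A01 (windows 7 to 26).

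Library 1 of the K-deprived roots was lower on C01 in 3 blocks, at -0.45, -0.31 and -0.37, with no block on A01. At day 22, library 1 of the Co-deprived roots had C01 at -0.48 and -0.50 in 2 blocks and A01 at 0.28 and 0.36. Over the whole of C01, the other K-deprived libraries stood at 0.02 and 0.00 and the other Co-deprived ones at 0.11 and 0.03.

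The balance of A01 and C01 was also read from their counts. Leaving out the 1% of placed genes with most counts, A01 held 67.5% of the counts of A01 and C01 together in Ca-deprived library 1, 63.2% in Mg-deprived library 1 and 60.95% in K-deprived library 1, against 50.9% to 51.1% in the 3 controls of day 10. In Co-deprived library 1 it held 65.2%, against 49.7% to 50.6% in the controls of day 22. The sum of the pair was 9.38% of placed counts in Mg-deprived library 1 and 9.48% in Co-deprived library 1, close to the 9.52% to 9.59% of the 10-day and 9.604% to 9.75% of the 22-day controls. In Ca-deprived and K-deprived library 1 the sum was lower, 8.397% and 8.47%.

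The start of C01 varied in many more libraries. Its first 9 windows, BnaC01g00010D to BnaC01g09000D, deviated by -0.68, 0.22 and 0.22 in the 3 Ca-deprived libraries, by -0.47, -0.26 and 0.15 in the N-deprived ones, and by 0.22, 0.18 and 0.22 in the 10-day controls. At day 22 they deviated by -0.76, -0.02 and -0.30 in Cl-deprived, -0.54, 0.17 and -0.13 in Mn-deprived and 0.20, 0.20 and 0.21 in control libraries. The controls of both days were all at the high end of this range, and the deprived libraries ran from that level to far below it.

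Other pairs were shifted in fewer libraries. In K-deprived library 3 windows 8 to 35 of A02 deviated by -0.41 and windows 10 to 49 of C02 by 0.33, against 0.01 and 0.00 on A02 in the other 2. In Mn-deprived library 2 the first 5 windows of A02 deviated by -0.69 and the first 10 windows of C02 by 0.40. The boundaries therefore differed between libraries on the same chromosome pair.

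The first 7 windows of A05, BnaA05g00010D to BnaA05g07000D, were lower in 5 libraries: -0.24 and -0.42 in K-deprived libraries 1 and 3, -0.53 in Mg-deprived library 3, -0.35 in N-deprived library 1 and -0.39 in Cl-deprived library 2. In the same 5 libraries the first 8 windows of C04 were higher, by 0.22, 0.27, 0.31, 0.23 and 0.25. The other libraries of these 4 conditions stayed between -0.03 and 0.10 on A05.

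In Ca-deprived library 2 windows 12 to 28 of A10 deviated by -0.35 and windows 34 to 51 of C09 by 0.28, and windows 40 to 46 of C08 by -0.31 with windows 46 to 51 of A09 at 0.24. N-deprived library 1 had the reverse on the second pair, -0.36 on A09 and 0.27 on C08. So the lower member could be on either subgenome.

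Not every block had a partner. Co-deprived library 2 was higher along C02, by 0.27 on its first 10 windows and 0.29 on windows 10 to 49, while its A02 stood at 0.01. Cl-deprived library 2 was lower on C02, by -0.21 and -0.19, with A02 at 0.01. On windows 43 to 50 of A03, BnaA03g42010D to BnaA03g50000D, the 9 deprived libraries of day 22 stood between 0.00 and 0.08, against -0.49, -0.49 and 0.03 in control libraries 1, 2 and 3.

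**Figure D3:**
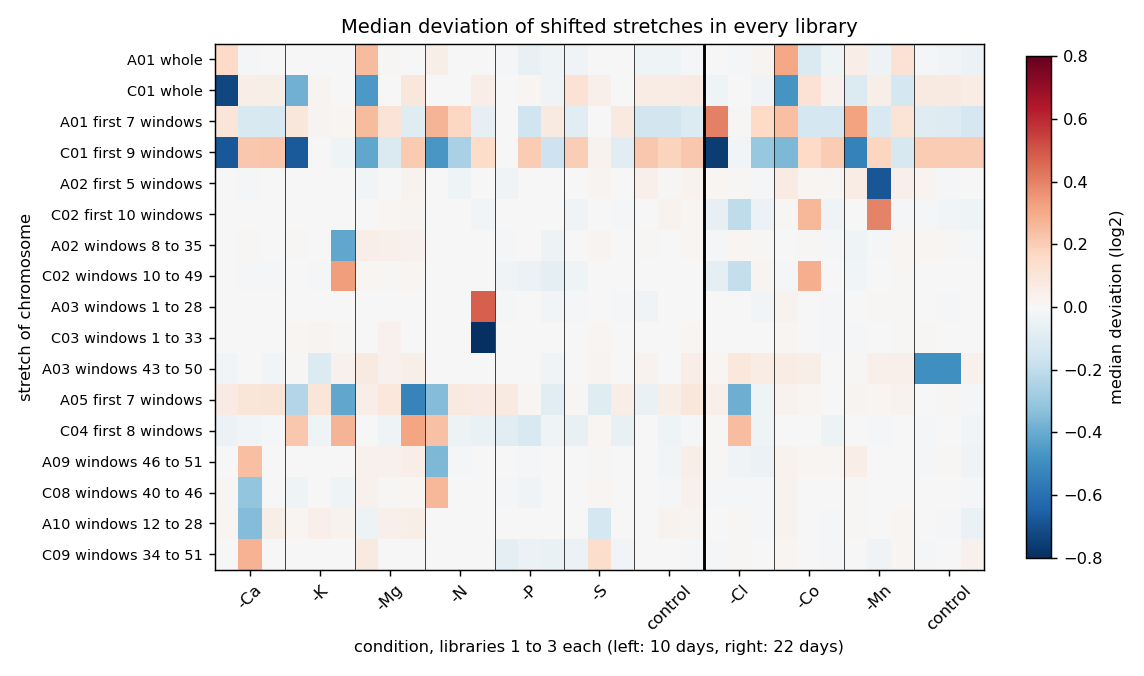
Median deviation (colour, log2) of 17 stretches of chromosome (rows) in each of the 33 libraries (columns, 3 per condition, day 10 left of the thick line). Most cells are near 0. Some strong cells stand in a single library with the opposite sign on a partner row (-0.81 on C03 and 0.48 on A03 in N-deprived library 3), and others are shared by 2 libraries of a condition (-0.49 in control libraries 1 and 2 of day 22 on windows 43 to 50 of A03).

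Chromosome levels moved against each other in 5 of these pairs. Each library's mean level per chromosome was centred on its condition, and over the 33 libraries the most negative of the 90 correlations between an A and a C chromosome were those of A03 with C03 (r = -0.88), A01 with C01 (-0.85), A10 with C09 (-0.79), A02 with C02 (-0.56) and A05 with C04 (-0.53). Those of A08 with C01 and A06 with C01 (both -0.52) were the only others under -0.5, and A09 with C08 had -0.06. The median of the 90 was 0.03. Chromosome levels are centred on all placed genes, so they are not independent, and the values rest on few libraries: for A03 and C03 r was -0.94 over the 21 libraries of day 10 and 0.31 over the 12 of day 22. They are given as a description.

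The spread between replicates followed the blocks. The level of C01 had a within-condition SD of 0.225 (log2) over the 21 libraries of day 10, followed by C03 (0.0807), A01 (0.0786) and A02 (0.0726). The 7 chromosomes without a block had SDs of 0.0128 (A08) to 0.0178 (C05). Values on C01 were therefore more than 10 times as variable between replicates as those on A08. What lies behind the shifts was not tested, and a change in RNA per gene copy cannot be told apart from a change in the number of copies.

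Over all 19 chromosomes the test found no difference in the A to C balance between conditions beyond the replicate spread. The mean log2 CPM of tested A genes minus that of tested C genes ran from -0.0206 to 0.144 over the libraries of day 10 (median 0.0408) and from -0.0122 to 0.104 over those of day 22. Differences between conditions made up 21.5% of the variance at day 10 (permutation p = 0.711, one-sided, 100000 resamples) and 14.1% at day 22 (permutation p = 0.766). The extremes were libraries with blocks: 0.144 in Ca-deprived library 1, 0.121 in N-deprived library 3 and 0.104 in Co-deprived library 1 at the high end, and -0.0206 in K-deprived library 3 at the low end.

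For 3 deprivations the 3 deprived libraries did not overlap the controls. The difference was 0.0523, 0.0691 and 0.0822 in P-deprived and 0.0370, 0.0387 and 0.0583 in S-deprived libraries, against 0.0347, 0.0252 and 0.0293 in controls. It was 0.0534, 0.0431 and 0.0454 in Cl-deprived libraries, against 0.0185, 0.0187 and 0.0141 in controls. Each gave an exact permutation p of 0.1 (two-sided), the smallest that 3 against 3 allows, and 0.30 after Benjamini-Hochberg adjustment over the 9 deprivations. The other 6 deprivations overlapped their controls (exact p from 0.4 to 1), and single libraries set their differences: 0.0427 for Ca, 0.00692 without its library 1, 0.0254 for N, -0.0075 without its library 3, and 0.0198 for Co, -0.0138 without its library 1.

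With the 12 chromosomes that carry blocks left out, a choice made after seeing the data and given without a test, the within-condition SD fell to 0.0136, against 0.0402 with all 19, at day 10. Differences between conditions then made up 76.4% of the variance at day 10 and 8.799% at day 22. P-deprived libraries then ran from -0.00299 to 0.0329 and S-deprived ones from -0.00704 to 0.00575, both above the controls at -0.0328 to -0.0169. Cl-deprived libraries ran from -0.0241 to -0.0144 and overlapped their controls at -0.0190 to -0.0126. Ca-deprived libraries, at -0.0163 to -0.00822, then also lay above the controls.

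**Figure D4:**
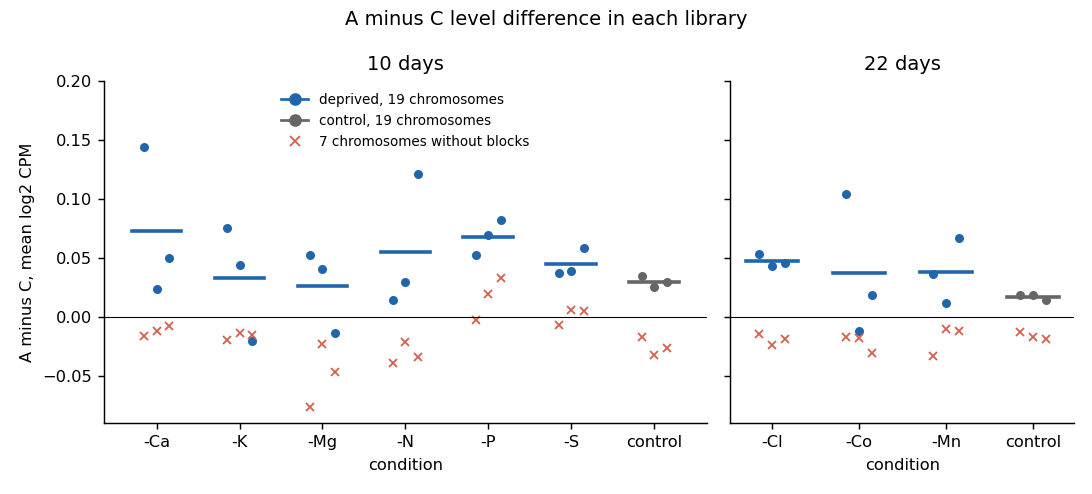
A minus C difference in mean log2 CPM (y axis) in each library by condition, for day 10 (left) and day 22 (right), with bars at the means. Blue and grey points use all 19 chromosomes and crosses only the 7 chromosomes without blocks. Ca-deprived library 1 (0.144) and N-deprived library 3 (0.121) lie far above their replicates, and their crosses do not.

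The share of genes expressed moved little. Mg-deprived libraries had 53.8% ± 0.248 of A genes and 45.8% ± 0.0691 of C genes at 1 CPM, against 54.4% ± 0.235 and 46.1% ± 0.247 in controls, with no overlap in either subgenome. P-deprived libraries had 55.2% ± 0.272 of A genes (SD, n = 3), above all controls, while their C share (46.4% ± 0.394) overlapped. In the other 7 deprivations both shares overlapped those of the controls.

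Whole chromosomes changed little in mean level. limma was run on the 19 chromosome means, centred on all placed genes. Under P deprivation 3 of 19 passed an adjusted p of 0.05 (15.8%): A04 changed by 0.05 (mean -0.0112 in deprived and -0.0580 in control roots, limma adjusted p = 0.0298), A08 by 0.04 (adjusted p = 0.0298) and C06 by -0.04 (adjusted p = 0.0337). Under S deprivation 1 of 19 passed (5.26%), A08, by 0.05 (adjusted p = 0.00638). None of these 3 chromosomes carries a block. For P the count fell to 0 without control library 2 or 3 or without P-deprived library 2 or 3, and to 1 without control library 1.

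For the other deprivations none of the 19 passed (0.0%) under limma. At an unadjusted p under 0.05, 2 chromosomes passed under Ca, 1 under N, 0 under K and Mg, and 2 each under Cl, Co and Mn. C01, with its block at -0.73 in 1 Ca-deprived library, did not pass under Ca.

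Genes responded to deprivation on all 19 chromosomes. Genes were tested with the edgeR quasi-likelihood test in 1 model per time point, and a gene was called at an adjusted p of at most 0.05 over all 56667 genes tested at day 10. Of all genes, 26.5% were called under Ca, 1.26% under K, 3.58% under Mg, 20.1% under N, 29.3% under P and 8.84% under S deprivation. Among A genes the shares were 27.0%, 1.30%, 3.69%, 20.7%, 30.2% and 9.26%, in the same order, and among C genes 25.98%, 1.22%, 3.55%, 19.4%, 28.7% and 8.55%.

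The A share was above the C share in all 6 deprivations, by 1.01 (Ca), 0.0725 (K), 0.139 (Mg), 1.22 (N), 1.58 (P) and 0.71 (S) percentage points. Both subgenomes stayed close to the share over all genes, and the direction was not stable for K, Mg and S. The difference turned to -0.0122 for K and -0.0160 for Mg when only the 6 libraries compared were fitted. It was -0.0745 for K without control library 1 and -0.0120 without K-deprived library 2, and -0.00217 and -0.0157 for Mg without control library 1 or 3. For S it was -0.00879 without control library 2 and -0.0222 without S-deprived library 1. For Ca it was 0.239 without Ca-deprived library 1.

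The gap was smaller without A01 and C01. Without A01 and C01 the difference was 0.398 for Ca, 0.739 for N, 0.946 for P and 0.349 for S, and -0.0250 for Mg. Without the 12 chromosomes with blocks it was 0.932 for Ca, 0.209 for N and 1.03 for P, and it turned to -0.87 for S. Both were chosen after seeing the data.

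Of all genes tested, 12.6% were called higher and 13.9% lower under Ca, 0.916% and 0.346% under K, 2.34% and 1.24% under Mg, 9.0% and 11.1% under N, 15.1% and 14.3% under P, and 4.22% and 4.63% under S. The split was also read in each subgenome, with no test of the difference between them. With TMM factors, 53.5% of called A genes and 49.6% of called C genes were higher under P deprivation. Under N deprivation 46.4% and 43.4% were higher and under Ca deprivation 48.3% and 46.7%. Under K 73.0% and 72.0% were higher and under Mg 65.7% and 66.0%. The split depended on the scaling: with upper-quartile factors 57.3% of A and 55.7% of C genes called under N were higher, and 60.2% and 59.1% under S, against 48.02% and 46.7% under S with TMM. Under P it was 61.5% and 58.4% with upper-quartile factors, so most called genes were then higher on both subgenomes.

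Counts of calls also depended on single libraries. Of placed genes, 13455 were called under Ca, 640 under K, 1837 under Mg, 10186 under N, 14955 under P and 4521 under S. Without control library 2 the count was 389 for K, 819 for Mg, 6521 for N and 908 for S. Without control library 3 it was 399 for K, 6775 for N and 1735 for S, and without control library 1 it was 1080 for Mg.

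The deprived libraries weighed as much. Without library 2 or 3 of the K-deprived roots, 355 and 379 genes were called, against 640 with all libraries. Without library 1, 2 or 3 of the Mg-deprived roots the counts were 570, 3313 and 935, against 1837. Without N-deprived library 3 the count was 5724, without P-deprived library 3 it was 9715, and without S-deprived library 1 or 3 it was 572 and 1541.

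C01 had the lowest share of called genes of the 19 chromosomes in all 6 deprivations. It was 18.9% under Ca, 0.712% under K, 2.31% under Mg, 13.4% under N, 18.8% under P and 3.90% under S. The next lowest chromosome had 24.7% (C03), 0.991% (A05), 3.07% (C02), 18.52% (A02), 26.6% (A01) and 7.55% (C03). The highest were A04 under Ca (30.4%) and P (33.1%), A02 under K (1.82%), C04 under Mg (4.33%), A03 under N (23.3%) and C07 under S (11.1%).

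The share on C01 depended on the libraries in the fit. When each deprivation was fitted with only its own 6 libraries, C01 had 19.8% under P, against 22.2% over all placed genes, 11.9% under N, against 12.3%, and 0.137% under S, against 0.141%. Under Ca, whose own library 1 is shifted, it remained low, 13.4% against 20.8%. In the shared fit the spread of each gene is estimated over all 21 libraries, and the within-condition SD of C01 was the largest of the 19. Its part in the low share was not tested.

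**Figure D5:**
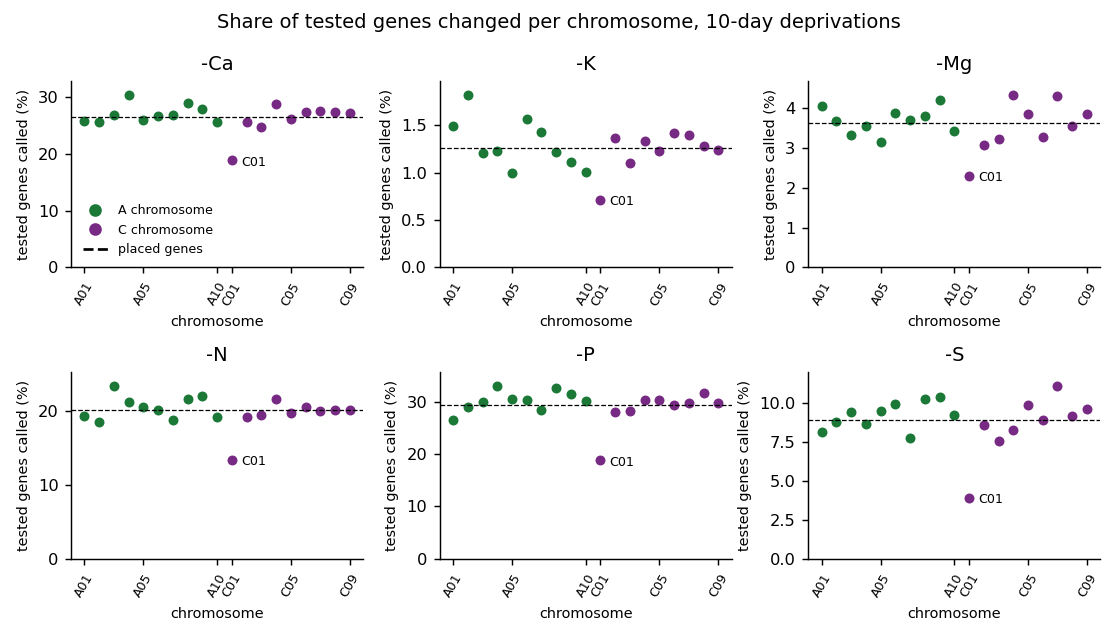
Share of tested genes called (y axis, percent) on each chromosome (x axis) under the 6 deprivations of day 10, with the share over all placed genes as a dashed line. Each point is 1 chromosome, A left of C. C01 is lowest in each panel, from 0.712% under K to 18.9% under Ca.

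Shifted stretches changed which genes were called, and in which direction. Under N deprivation, 58 genes were higher and 340 lower on windows 1 to 33 of C03, and 339 were higher and 158 lower on windows 1 to 28 of A03. Without N-deprived library 3 the counts were 102 and 149 on C03 and 104 and 150 on A03. Over all placed genes 20.0% of those tested were called under N with all libraries, and 44.9% of the called were higher. The stretches were chosen because this library deviates there, and leaving it out also lowered the count of calls over all placed genes. On the rest of these chromosomes the split hardly moved: 43.4% of called genes were higher on windows 34 to 79 of C03 with all libraries and 42.5% without that library.

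Under Ca deprivation C01 had 146 genes higher and 304 lower, and 183 and 166 without Ca-deprived library 1. On A01 the counts were 355 and 251, and 208 and 181 without that library. Windows 12 to 28 of A10 had 115 genes higher and 200 lower, and 129 and 113 without Ca-deprived library 2. Under Mg deprivation C01 had 19 higher and 36 lower, and 9 and 2 without Mg-deprived library 1. Over all placed genes 26.5% of those tested were called under Ca and 3.62% under Mg, with 47.5% and 65.9% of the called higher. These stretches too were chosen because the library left out deviates there.

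The gap was also read by level. Genes were divided into 5 classes by mean log2 CPM. The A share of called genes was above the C share in 6 of 6 deprivations among genes between 0 and 2, in 5 of 6 between 4 and 6 and from 6 upwards, in 4 of 6 between 2 and 4, and in 1 of 6 below 0. The sign of the gap was thus not the same in all classes.

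Of 7 pairs of A and C genes of sulfur metabolism, 5 passed the test under S deprivation in both copies, with the same sign, and the other two in 1 copy. Over all tested genes, 9.26% of A and 8.55% of C genes were called under S. The 7 pairs come from a list that the study chose on these samples, so neither the number that passed nor their direction is independent evidence. The 4 glutathione S-transferase genes were assigned to 2 pairs here. They were tested in the fit over all genes. SULTR1.1 is a high-affinity sulfate transporter of the root surface in Arabidopsis. BnaA02g10510D had 191, 177 and 207 CPM in S-deprived roots, against 3.00, 2.57 and 2.52 in controls (log2 fold change 6.15 ± 0.312, SE, edgeR adjusted p = 5.54e-09). BnaC02g14670D had 129, 122 and 143 CPM, against 4.03, 3.94 and 3.11 (5.15 ± 0.279, adjusted p = 8.46e-09).

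Both genes of this pair were higher in all 3 S-deprived libraries than in any control. The study lists another SULTR1.1 gene on the C subgenome, BnaC07g18000D, also raised under S deprivation, which the pairs leave out. The log2 ratio of the A to the C copy was 0.57, 0.54 and 0.53 in S-deprived and -0.41, -0.59 and -0.29 in control roots, a difference of 0.98 (exact permutation p = 0.1, two-sided, the smallest possible, 0.175 after adjustment over the 7 pairs). Neither A02 nor C02 carried a block in these 6 libraries. The ratio compares genes whose lengths were not used, so only its change between conditions is read.

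SULTR2.1 and SULTR2.2 are low-affinity sulfate transporters of vascular tissue in Arabidopsis. For SULTR2.1, BnaA10g22050D had 5.03, 3.58 and 4.74 CPM in S-deprived and 0.632, 0.257 and 0 in control roots, and BnaC09g46440D had 2.82, 0.696 and 2.16, against 0.237, 0.0858 and 0.0741. Their log2 fold changes were 3.89 and 3.79 (adjusted p = 0.00182 and 0.0117). S-deprived library 2, with the lowest value of both, had a deviation of -0.14 on windows 12 to 28 of A10 and 0.14 on windows 34 to 51 of C09, which hold these genes.

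For SULTR2.2, BnaA07g33850D rose by 1.46 and BnaC06g38470D by 1.62 on the log2 scale (adjusted p = 0.00135 and 0.000162). The A copy had 27.0, 13.03 and 17.1 CPM, against 7.42, 6.17 and 7.26, and the C copy 67.3, 35.8 and 46.3, against 16.5, 15.4 and 16.8. The deprived libraries lay above all controls for both copies.

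SULTR1.2, the other high-affinity transporter, passed on A only. BnaA07g33860D had 112, 99.2 and 124 CPM, against 60.6, 26.1 and 52.1 (log2 fold change 1.27, adjusted p = 0.0450). BnaC06g38480D had 336, 284 and 361, against 235, 102 and 195 (0.89, adjusted p = 0.0727), again with no overlap. Their log2 ratio of A to C was -1.55 ± 0.0384 in S-deprived and -1.93 ± 0.0309 in control roots (exact p = 0.1, adjusted 0.175), so passing on A alone does not show that the copies differ.

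APS kinase phosphorylates adenosine phosphosulfate, the activated form of sulfate. BnaA09g08410D rose by 0.91 and BnaC09g08710D by 0.99 (log2, adjusted p = 0.00699 and 0.00557), with 82.6, 74.99 and 73.3 CPM, against 52.8, 27.2 and 42.8, for the A copy. Their ratio did not move beyond its spread, at 0.81 ± 0.0775 in S-deprived and 0.88 ± 0.1002 in control roots (exact p = 0.5). For glutathione S-transferases, which conjugate glutathione to other compounds, BnaA06g11500D fell by 1.04 and BnaC05g13360D by 0.68 (adjusted p = 0.0151 and 0.0278), while BnaC05g13350D fell by 1.89 (adjusted p = 0.00845) and BnaA06g11510D, at -1.37, did not pass (adjusted p = 0.0623).

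Over the 7 pairs, 4 had A to C ratios that did not overlap between S-deprived and control roots, and none passed after adjustment (0.175 for those 4). The ratio was read for these 7 pairs only, so this count cannot be set against a share over all pairs. Under N deprivation both copies of SULTR1.2 fell, to 0.533 CPM on average in deprived and 46.3 in control roots for BnaA07g33860D and to 4.48 and 177 for BnaC06g38480D (log2 fold changes -6.37 and -5.31). Both copies of SULTR2.2 fell as well, with log2 fold changes of -2.52 for BnaA07g33850D and -2.01 for BnaC06g38470D.

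The genes with the largest changes lay on chromosomes of both subgenomes. The gene with the largest change in each direction was taken for each deprivation and subgenome, among called genes with an annotation in the tables of the study, a mean log2 CPM of at least 1 and no overlap. Under Ca deprivation the GDSL lipase BnaC09g16910D rose by 9.66 (log2, edgeR adjusted p = 2.83e-07), and its control values were 0.316, 0.171 and 0.0741 CPM. The glycoside hydrolase BnaA07g17230D rose by 7.92 (adjusted p = 1.25e-05). The cytochrome P450 BnaC02g01790D had 0 counts in all 3 Ca-deprived libraries, against 76.9, 45.02 and 73.6 CPM in controls, at least 976-fold lower (3 counts over the group as floor).

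BnaA08g24500D, a member of the major facilitator superfamily of transporters, had 152, 80.5 and 90.8 CPM in controls. Over the 3 libraries it had 6 counts under Ca and 2 under P deprivation. BnaC03g56990D, of the same superfamily, fell by 7.04 under P deprivation (adjusted p = 3.64e-09), with 263 CPM on average in controls. The largest falls under P on A and on C were thus both in transporter genes of this superfamily.

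Under P and K deprivation the largest rise on C was in the same gene, BnaC08g18720D, annotated as a thaumatin, a family that includes defence proteins. It had 48.05 CPM on average in P-deprived and 13.4 in K-deprived roots, against 0.35 in controls (log2 fold changes 7.09 and 5.25, adjusted p = 1.25e-07 and 8.43e-05). On A the largest rises were in BnaA02g35870D under P, a Kunitz proteinase inhibitor (4.41), and in BnaA08g00970D under K, a GDSL lipase (3.76). Under K the largest falls were in BnaA02g20830D (-3.55), of the isopropylmalate synthase family, and in the cytochrome P450 BnaC04g50280D (-2.33).

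Under N deprivation the largest rises were in genes with a PAR1 annotation on both subgenomes: BnaA02g10950D by 5.39 and BnaC02g45000D by 6.24 (adjusted p = 4.73e-08 and 1.28e-08). BnaC02g45000D averaged 24.6 CPM in deprived and 0.319 CPM in control roots. The largest falls were in cytochrome P450 genes on both: BnaA06g25380D had 0 counts in the 3 deprived libraries, against 15.4, 5.32 and 20.6 CPM in controls (at least 199-fold lower), and BnaC06g01270D had 1 count, against 367 in controls.

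Under Mg deprivation the rises were in BnaA01g16840D, a drug/metabolite transporter (3.26), and in the Kunitz inhibitor BnaC02g46470D (3.04). The largest falls on A and C were both in genes of 1 family, the phospholipases and carboxylesterases: BnaA05g35750D by 1.85 and BnaC01g35920D by 1.70 (adjusted p = 0.00573 and 0.00346). Under S deprivation BnaA10g26070D, a phosphoglycerate mutase, rose by 3.05 (adjusted p = 0.00386) and BnaC09g16910D by 3.96 (adjusted p = 0.0201). The falls were in BnaA01g28200D, a photosystem I subunit (-2.83), and BnaC01g39170D, a glutathione S-transferase (-2.70).

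Mean levels were also compared over windows of 50 genes, where a call can rest on many genes or on 1 gene with a large change. Of 1772 windows of 50 genes, limma called 505 under Ca (28.5%), 317 under P (17.9%), 308 under N (17.4%), 113 under S (6.38%), 14 under Mg (0.79%) and 0 under K (0.0%, with 213 at an unadjusted p under 0.05). Called windows took like shares of the 807 A and 965 C windows: 28.9% and 28.2% under Ca, 18.6% and 17.3% under P and 16.9% and 17.8% under N. The directions were less alike, and their difference was not tested. Under P 93 called A windows were higher and 57 lower, and 75 called C windows were higher and 92 lower. Under Ca it was 135 higher and 98 lower on A and 134 and 138 on C, under N 74 and 62 on A and 97 and 75 on C, and under S 34 and 16 on A and 27 and 36 on C. Some counts rested on a library: 333 under Ca without Ca-deprived library 1, 174 under N without N-deprived library 3 and 173 without control library 2, and 177 under P without P-deprived library 3. Under S it was 20, 40, 28 and 66 without control library 2 or 3 or S-deprived library 1 or 3, and under Mg 5, 3, 39 and 3 without control library 2 or Mg-deprived library 1, 2 or 3.

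A window on C06, BnaC06g05510D to BnaC06g06000D, had the largest fall of all under Ca, N and P deprivation. It changed by -1.03, -1.07 and -0.82 (log2, limma adjusted p = 7.71e-09, 3.95e-09 and 3.33e-07), and 10 of its 18 tested genes were lower and none higher under N. Under P 5 were lower and 1 higher. Under Ca 6 were lower and 5 higher, its leading gene was BnaC06g05800D, an oxoglutarate/iron-dependent dioxygenase (-9.01), and the median of its genes was -0.01. The 3 comparisons share the control libraries. C06 carries no block in any library.

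The largest rises lay elsewhere. Under Ca it was BnaA01g12510D to BnaA01g13000D (0.85, adjusted p = 0.000308), in a stretch of A01 that was higher in Ca-deprived library 1, with 13 of 30 tested genes called higher and 3 lower. Under P it was BnaA09g16010D to BnaA09g16500D (0.95, adjusted p = 5.26e-06), but 8 of its 28 tested genes were called higher and 6 lower, their median log2 fold change was -0.09, and 1 gene, BnaA09g16440D, changed by 8.32. Under N it was BnaA09g24510D to BnaA09g25000D (0.58, adjusted p = 4.50e-05), with 9 of 25 called higher, 1 lower and a median of 0.28. Under S it was BnaC03g03010D to BnaC03g03500D (1.07, adjusted p = 0.00163), where 7 of 35 were called higher and none lower, with a median of 0.27 and a change of 8.74 in BnaC03g03090D.

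Ion transporters were called on both subgenomes. The list of 302 genes was chosen by the study on these samples, so these counts are no independent evidence, and it holds 133 A, 134 C and 35 unplaced genes. Under Ca 81 A and 71 C transporters were called (60.9% and 53.0%, against 27.0% and 25.98% of all tested A and C genes), 56 and 50 of them lower, with median log2 fold changes of -0.45 and -0.48, against 0.01 and -0.04 over all tested A and C genes. Under P it was 67 and 77 (50.4% and 57.5%, against 30.2% and 28.7%), 49 and 56 of them lower. Under N it was 59 and 53 (44.4% and 39.6%, against 20.7% and 19.4%), 43 and 33 of them lower. Under S 23 and 16 were called (17.3% and 11.9%, against 9.26% and 8.55%), under Mg 15 and 17 (11.3% and 12.7%, against 3.69% and 3.55%) and under K 8 and 7 (6.02% and 5.22%, against 1.30% and 1.22%).

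At day 22 the edgeR quasi-likelihood test called no gene under Cl, Co or Mn deprivation (0.0% of 54251). At an unadjusted p under 0.05, 1047 A and 946 C genes passed under Cl, 2525 and 2471 under Co and 2863 and 2867 under Mn. The likelihood ratio test of edgeR called 28, 69 and 164 placed genes, and DESeq2 29, 45 and 167. Of those called by the likelihood ratio test, 8 of 28, 10 of 69 and 28 of 164 lay on A03, which holds 6.87% of placed genes.

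How many of these calls lay on windows 43 to 50 of A03, where 2 controls were lower, was not counted. On windows 43 to 50 of A03, 111, 111 and 115 of 440 tested genes were higher and 1, 5 and 5 lower at an unadjusted p under 0.05 under Cl, Co and Mn, with median log2 fold changes of 0.39, 0.35 and 0.34, while the median of the rest of the placed genes was within 0.01 of 0 in each. That is 25.5%, 26.4% and 27.3% of the tested genes there, against 4.09%, 10.3% and 11.8% of all placed genes. The 3 comparisons share the controls, and the stretch was chosen after its values were seen.

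No window of 50 genes passed limma at day 22 with all libraries (0.0%), with 78, 160 and 171 at an unadjusted p under 0.05. Control library 3 was the only control at the level of the deprived roots on A03. Leaving it out sets them against the shifted controls alone, so passing there was built in and tests no response. Then 16, 14 and 12 windows passed under Cl, Co and Mn, all of them higher in the deprived roots. Of these, 14, 12 and 11 lay in that stretch of 16 windows. The chromosome A03 then also passed, by 0.07, 0.06 and 0.07, for the same reason. With all 3 controls the medians above were positive as well, but control library 3 stood within the range of the deprived roots there. Whether deprived and control roots differ on windows 43 to 50 was therefore not settled.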

How the data were processed

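Root RNA of 33 libraries was sequenced as poly(A)-selected, stranded paired-end libraries. The authors trimmed the reads, mapped them with STAR and removed reads with several hits, and deposited raw counts per gene, whole numbers with no normalization. The column of reads on the reverse strand was used, since the opposite column held at most 0.782% of reads. Reads that mapped to several places (6.68% to 7.67%) are not counted, so near-identical A and C copies may be undercounted. Rows that name no gene stayed out of library sizes. The position of a gene is the running number in its identifier. No identifier is marked as random. The genes listed in short runs at the end of each numbering were kept as placed in windows and chromosome means. Without them, 2 of 19 chromosomes passed limma under P deprivation, against 3 with them.

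Genes passing filterByExpr were tested in R 4.3.3 with edgeR 4.0.16 (TMM factors, glmQLFit and glmQLFTest) on the 21 libraries of day 10 and the 12 of day 22, with Benjamini-Hochberg adjustment over all genes tested. Chromosome and window means of log2 CPM (prior count 2) were tested with limma 3.58.1, and single values with exact permutation tests. The fits were checked on simulated counts. Where a library was left out, the spread was pooled over all groups. Genes were named by rule: the gene with most counts per chromosome, 7 A and C pairs of the study, the gene with the largest change per deprivation, subgenome and direction, and the longest silent runs. Members and lists were chosen with earlier results of these data known. Replicates are separate pools of plants. The same replicate numbers do not pair libraries by any label. Alternatives were other normalizations, DESeq2 1.42.0, the likelihood ratio test, other filters, unstranded counts, a replicate block, other window sizes and leaving out libraries. Gene lengths and sequences were not used here.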

Additional observations from a re-analysis of the deposited data

How the results depend on the processing

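Of 573 values under an alternative, 468 stayed within the limits set for them: no call gained or lost, a count within 1.5 times, or a value within the replicate spread. With a log2 fold change of at least 1 added, 7310 placed genes were called under Ca, 1042 under Mg, 5173 under N, 6802 under P and 2176 under S, and the A minus C difference in called share was 0.162 (Ca), 0.523 (N) and 0.0465 (S) percentage points. DESeq2 called 1294 under K and 2779 under Mg, and 29, 45 and 167 under Cl, Co and Mn. The likelihood ratio test called 1313 under K and 2937 under Mg, and 28, 69 and 164 under Cl, Co and Mn. With no low-count filter 1 gene was called under Cl and 1 under Mn, and the difference for Ca was 1.85. With only the 6 libraries compared, 19 (K), 30 (Mg), 5762 (N), 66 (S), 37 (Co) and 1 (Mn) were called, with differences of -0.0122 (K), -0.0160 (Mg) and 0.0281 (S).

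With the replicate block the difference for K was -0.0327 and 2 genes were called under Mn. The block moved no other result past its limit, and same-numbered libraries deviated together in all 3 pairs only for Co (correlations 0.283, 0.148 and 0.469), so the numbers were not taken as pairs.

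Leaving out 1 library gave 355 to 731 placed genes under K, 570 to 3313 under Mg, 5724 to 10967 under N, 9715 to 14153 under P and 572 to 6369 under S. The difference in called share ran from 0.239 to 0.943 (Ca), -0.0745 to 0.0468 (K), -0.0157 to 0.451 (Mg) and -0.0222 to 0.93 (S). Called windows numbered 333 to 415 (Ca), 0 to 1 (K), 3 to 39 (Mg), 173 to 310 (N), 177 to 296 (P), 20 to 146 (S), 0 to 16 (Cl), 0 to 14 (Co) and 0 to 12 (Mn), and called chromosomes 0 to 1 (Ca, Cl, Co and Mn) and 0 to 4 (P). With windows of 100 genes, 1 was called under K and 32 under S. With medians over genes 0 chromosomes were called under P and 0 under S, and with genes at 1 CPM in every library 0 under S.

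The following were chosen after seeing the data. Without A01 and C01 the difference in called share for Mg was -0.0250. Without the 12 chromosomes with blocks it was -0.0948 (Mg), 0.209 (N) and -0.870 (S), and the change in the A minus C level was 0.0268 (S), -0.0030 (Cl) and -0.0024 (Mn). Among genes of a mean log2 CPM of at least 2 that change was 0.00089 under S. Of the alternatives planned, it was 0.0255 under Mg and 0.0381 under Cl as a ratio of summed counts, 0.0233 under Cl with medians and 0.0055 under S with genes at 1 CPM in every library. The expressed share of A was 8.805 points above that of C at 0.3 CPM and 5.64 at 5 CPM. The A share of counts was 49.94% without the top gene of each chromosome and 49.80% without the top 1% of genes. The cause of these changes was not tested.

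The 3 libraries of a group limit an exact permutation test of a single value to p = 0.1, DNA was not measured, and genes of a chromosome share its shift in a library, so counts of genes on the 12 chromosomes with blocks are not counts of independent responses.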
